A study of Mus musculus with 98 samples.

Results

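The 9 human clock genes described here are PER1, PER2, PER3, CRY1, CRY2, CIART, DBP, TEF and HLF, read in human rows of mouse livers that carried human hepatocytes. They were chosen by gene name and Ensembl identifier, as 9 of the 17729 human rows of the liver count table. The rule uses no measured value, but the set was proposed with earlier results of these data known. The livers came from FRGN mice, which are Fah-/-, Rag2-/- and Il2rg-/- on a cross with non-obese diabetic mice, and the labels describe males aged 10 weeks. Without Fah, hepatocytes die unless the drug nitisinone is given, so that transplanted cells can take their place. These were human hepatocytes in the Hu arm and murine hepatocytes in the control arm (Mu). The deletions, the cycles of nitisinone and the antibiotic prophylaxis were common to all mice. There were 15 Hu and 12 Mu livers, taken 2, 6, 10, 14, 18 and 22 h after the lights came on (zeitgeber time, ZT), with 2 or 3 Hu and 2 Mu livers per time. Mouse rows of a Hu liver hold the host's other liver cells and the mouse hepatocytes it still has.

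In the circadian clock, the activators BMAL1 and CLOCK bind E-box elements and switch on the PER and CRY genes, whose proteins later block the same activators. CIART, also called CHRONO, is a further repressor of that pair. DBP, TEF and HLF are the PAR bZIP transcription factors, which bind D-box elements and pass the rhythm on to output genes, in liver among them genes of drug metabolism. In mouse liver Dbp is known to peak ahead of Per2, and Cry1 later still.

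Human rows held 12.05 to 103.4 M counts per Hu liver (M for 1000000), mouse rows of the same livers 7.699 to 87.89 M, and mouse rows of Mu livers 97.07 to 118.3 M. Human rows took 15.86 to 93.07% of the counts of a Hu liver, and 11 of 15 livers lay under the 70% of human repopulation that the labels name as the minimum for selection, although a share of RNA need not equal a share of cells. Values of the 9 genes below are CPM, counts of a gene per 1000000 counts in rows of the same species after TMM scaling (trimmed mean of M values). The sums of cell type markers are CPM without TMM scaling. Human rows were close to empty where no human cells were present. Over the 12 Mu livers, the 9 genes summed to 0 (DBP) to 6 counts each, with at most 4 counts in 1 liver, whereas the lowest count of any of them in a Hu liver was 29, for CIART. The opposite error, human reads counted in mouse rows, could not be measured because every liver held mouse cells. In mouse rows, the summed CPM of 6 hepatocyte markers ranged from 19480 to 114700 in Hu and from 85980 to 111600 in Mu livers. The medians were 92810 and 99750 CPM. The lowest Hu value was that of ZT 18 replicate 3, and the next lowest was 65360 CPM. Sums for markers of the other liver cells were higher in Hu at the median, for macrophages 835.6 against 428.9 CPM, for endothelium 540.6 against 240.5, for stellate cells 763.3 against 224.9 and for bile duct 62.81 against 15.86. No marker of these lists was at 0 in a Hu liver, and the part of these cells in the mouse values was not tested. In such bulk samples, fewer cells of a type and less RNA per cell cannot be told apart.

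Whether the transplanted hepatocytes kept a daily rhythm of these genes was examined first. A cosine of 24 h was fitted to each gene; its amplitude is how far the peak rises above the fitted mean, in log2 units. In human rows, CRY1 and HLF passed the test for rhythm (edgeR quasi-likelihood F test, adjusted p under 0.05 over all human rows), which makes 2 of 9 genes where 1.08% of the 12832 human rows tested passed. At an unadjusted p under 0.05 all 9 genes passed, where 19.2% of human rows did. The median amplitude of the 9 genes was 0.96, against 0.15 over all human rows tested. The fitted peaks fell into a daytime and early night group of 8 genes, from ZT 7.24 (DBP) to ZT 12.6 (PER2), and CRY1 alone at ZT 19.7.

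**Figure D1:**
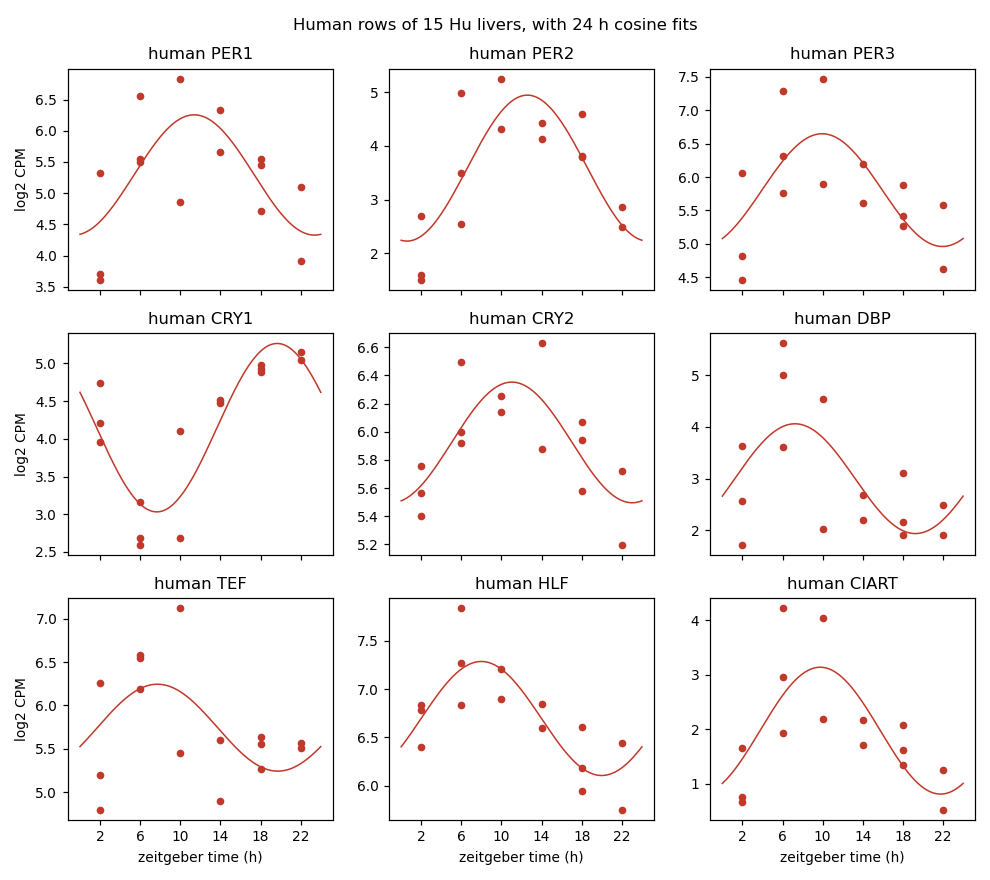
Log2 CPM of the 9 human genes in human rows (vertical axis) against zeitgeber time in hours (horizontal axis); each point is 1 of 15 Hu livers and each line the fitted 24 h cosine. CRY1 is lowest at ZT 6 and highest at ZT 18 and 22, while the other 8 curves peak between ZT 7.24 and 12.6, with livers of 1 time point lying far apart at ZT 2, 6 and 10.

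CRY1 (ENSG00000008405), whose protein is the late and strong repressor of the loop, had the smallest p-value of the 9. Its level was 15.55, 26.57 and 18.44 CPM at ZT 2 and 6.005, 8.893 and 6.416 CPM at ZT 6. The 2 livers at ZT 10 gave 17.21 and 6.425 CPM, and those at ZT 14 22.28 and 22.86 CPM. At night it reached 31.49, 29.43 and 30.34 CPM at ZT 18 and 32.84 and 35.42 CPM at ZT 22. Every liver at ZT 18 or 22 thus lay above every liver at ZT 2 to 14. The amplitude was 1.12 ± 0.19 (jackknife SE over 15 livers), a fitted peak-to-trough ratio of 4.70, with the peak at ZT 19.7 ± 0.62 h (edgeR adjusted p = 0.0198). CRY1 passed in 13 of 15 fits that left out 1 liver, and lost it without replicate 2 or 3 of ZT 6 (adjusted p up to 0.0722). With the share of counts in human rows as a covariate its edgeR adjusted p was 0.0494, and without the 2 livers under 30% human counts 0.051, within a range of 5.399e-07 to 0.211 over the 9 alternatives.

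CRY2 (ENSG00000121671), the other cryptochrome, moved little. It ranged from 36.6 to 98.8 CPM, with the lowest liver at ZT 22 and the highest at ZT 14. Livers at ZT 2 held 54.14, 47.33 and 42.21 CPM, those at ZT 10 70.45 and 76.37 CPM, and those at ZT 22 52.83 and 36.63 CPM. Its amplitude of 0.43 ± 0.11 was the smallest of the 9, with a peak at ZT 11.03 ± 0.98 h (adjusted p = 0.0814).

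The PER genes encode the partners of the cryptochromes in the repressor complex, and PER1 and PER2 also respond quickly to hormones and other signals. PER2 (ENSG00000132326) had the largest amplitude of the 9 human genes, 1.36 ± 0.26, a fitted peak-to-trough ratio of 6.57. It stood at 6.4, 2.8 and 3.0 CPM at ZT 2, at 19.92 and 38.03 CPM at ZT 10, at 21.5 and 17.51 CPM at ZT 14 and at 5.589 and 7.262 CPM at ZT 22. The ZT 10 and ZT 14 livers did not overlap those of ZT 2 or ZT 22, whereas the ZT 6 livers, at 31.42, 5.803 and 11.22 CPM, spread across most of the range. The peak lay at ZT 12.6 ± 0.84 h (adjusted p = 0.0636).

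PER1 (ENSG00000179094) held 39.87, 12.93 and 12.15 CPM at ZT 2 and 93.7, 45.02 and 46.49 CPM at ZT 6. Its ZT 10 livers held 28.92 and 114.2 CPM, the highest liver of all times among them. Amplitude and peak were 0.96 ± 0.37 and ZT 11.4 ± 0.97 h (adjusted p = 0.130). PER3 (ENSG00000049246), the family member that the loop can do without, showed the same split at ZT 10, at 59.69 and 177.8 CPM, against 48.05 and 24.69 CPM at ZT 22. Its amplitude was 0.84 ± 0.30 with the peak at ZT 9.95 ± 1.10 h (adjusted p = 0.105).

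CIART (ENSG00000159208) had the fewest counts of the 9, at 1.407 to 18.53 CPM. Its livers stood at 3.136, 1.555 and 1.653 CPM at ZT 2, at 18.53, 3.801 and 7.685 CPM at ZT 6, at 4.521 and 16.29 CPM at ZT 10 and at 1.407 and 2.34 CPM at ZT 22. All 5 livers of ZT 6 and 10 lay above all 5 of ZT 2 and 22. The amplitude of 1.16 ± 0.34 with a peak at ZT 9.75 ± 0.99 h did not pass the threshold (adjusted p = 0.0626).

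Among the PAR bZIP factors, HLF (ENSG00000108924) passed the test. It was at 114, 109.9 and 84.67 CPM at ZT 2, at 228.1, 114.3 and 153.6 CPM at ZT 6, at 119 and 147.7 CPM at ZT 10 and at 96.98 and 114.8 CPM at ZT 14. It then stood at 97.72, 61.61 and 72.41 CPM at ZT 18 and at 87.03 and 53.9 CPM at ZT 22. Every ZT 6 or ZT 10 liver was above every ZT 18 or ZT 22 liver. The amplitude was 0.59 ± 0.14 and the peak at ZT 7.99 ± 0.65 h (adjusted p = 0.0429). This call was kept in 2 of 15 fits that left out 1 liver, those without ZT 10 replicate 1 and without ZT 18 replicate 1, and the adjusted p rose to at most 0.106 in the others.

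DBP (ENSG00000105516), a direct E-box target, was at 12.35, 3.254 and 5.925 CPM at ZT 2 and at 48.96, 12.26 and 32.06 CPM at ZT 6. The ZT 10 livers split again, at 4.009 and 23.22 CPM, and the remaining 7 livers from ZT 14 to 22 lay between 3.712 and 8.536 CPM. The fit gave an amplitude of 1.06 ± 0.42 and a peak at ZT 7.24 ± 1.33 h (adjusted p = 0.0815). TEF (ENSG00000167074) reached 93.5, 72.89 and 96.14 CPM at ZT 6 and 43.9 and 139.2 CPM at ZT 10, against 47.46 and 45.51 CPM at ZT 22. Its amplitude of 0.50 ± 0.20 and peak at ZT 7.72 ± 2.27 h came with the largest p-value of the 9 (adjusted p = 0.197).

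In order of fitted peak, the human genes ran DBP, TEF, HLF, CIART, PER3, CRY2, PER1, PER2 and CRY1. Of the 8 steps between neighbours in this order, only that from PER2 to CRY1, 7.08 ± 0.98 h, was over 2 jackknife SE wide. The human row most like CRY1 over the 15 livers was ENSG00000154309 (Pearson r = 0.941, among 12823 rows compared), followed by ENSG00000134852 (r = 0.923). The tables used here do not pair these identifiers with names.

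At ZT 2, 6 and 10, livers of the same time point differed in ways that ran through most of the 9 genes. At ZT 10, replicate 2 exceeded replicate 1 in 8 of 9 human genes, by a median of 1.57 on the log2 scale, with CRY1 as the exception. The mouse rows of the same pair of livers went the same way for all 9 genes, by a median of 0.54. Replicate 2 exceeded replicate 1 in 4 of 9 human genes at ZT 14 and in 3 of 9 at ZT 22. Human and mouse rows went the same way in 6 of 9 genes at ZT 14 and in 8 of 9 at ZT 22. Without ZT 10 replicate 1, 4 human genes passed the test (CRY1, HLF, DBP and CIART). The liver with the lowest share of human counts at ZT 2 (15.86%) had the highest CPM of its time point in 8 of 9 human genes, and that at ZT 6 (24.96%) in 7 of 9, but that at ZT 10 (66.33%) in 1 and that at ZT 18 (53.68%) in 0. At ZT 14 (67.88%) it was 5 and at ZT 22 (42.72%) 6 of 9. Human shares lay at 66.33 to 81.33% in all 4 livers of ZT 10 and 14, against 42.72 to 52.5% at ZT 22. With that share as a covariate, 1 of 9 human genes passed (CRY1), where 0.132% of all human rows did, and without the 2 livers under 30% human counts 1 of 9 passed (PER2, edgeR adjusted p = 0.0358), where 0.41% of human rows did. The part of the human share and of these livers in the results was not tested.

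Mouse rows of Mu livers gave the reference for phase and amplitude. There 8 of the 9 genes were rhythmic (edgeR adjusted p under 0.05), where 17.3% of 14977 mouse rows were, and Cry2 was not (adjusted p = 0.119). At an unadjusted p under 0.05 all 9 passed, where 31.7% of mouse rows did. Their median amplitude was 2.09, against 0.26 over all mouse rows tested. Dbp (ENSMUSG00000059824) rose from 2.292 and 2.619 CPM at ZT 2 to 289.9 and 448.4 CPM at ZT 10, the largest amplitude of the 9 (3.42 ± 0.50). Ciart (ENSMUSG00000038550) rose from 0.7407 and 0.3165 CPM to 72.9 and 90.0 CPM over the same hours (amplitude 3.27 ± 0.49). In both, the 2 ZT 10 livers lay far above those of all other times. In mouse rows of Hu livers 4 genes were rhythmic, Per2, Per3, Cry1 and Dbp, where 0.167% of mouse rows were, and the fitted amplitude was below that of Mu livers for all 9. At an unadjusted p under 0.05 it was 7 genes, where 15.8% of mouse rows passed. The median amplitude of the 9 genes in mouse rows of Hu livers was 1.19. Over all mouse rows tested it was 0.20 in Hu against 0.26 in Mu livers. Per3 lost its call in 3 of 27 fits that left out 1 liver. A list of 13 other clock genes could be followed in mouse rows only. Of these, 10 were rhythmic in Mu and 2 in Hu livers, Nr1d1 and Nr1d2, which encode the REV-ERB repressors, and 11 of 13 had the smaller amplitude in Hu.

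Promoter sequences of the mouse genes are shown because their motifs mark which of these genes carry an E-box or D-box close to the start. The RefSeq table (GRCm38.p6) holds windows from 250 bases before to 50 bases after the start for 8 of the 9 mouse genes, all but Per2, with 10 windows in all. An E-box (CACGTG, a palindrome, so the same on both strands) was found in 5 of the 10 windows, belonging to 4 genes, Per1, Cry1, Tef and Ciart, against 7.15% of 32851 windows in the table. A D-box core (TTANNTAA, both strands) was found in 2 of the 10 windows, of Per3 and Tef, against 6% of all windows. The REV-ERB and ROR element AGGTCA was in 1 of the 10 windows (16.3% of all), both strands searched. TGACG, the core of the cAMP response element, was in 5 of the 10 windows, of 4 genes (20.8% of all), both strands searched. A match is a run of letters and not a measured site. The window of Ciart holds 3 E-boxes, that of Cry1 and the Per1 window shown hold 1 each, and that of Per3 holds 2 D-box cores. The other window of Per1, not shown, holds 0 E-boxes. Capitals mark these motifs, and each sequence runs 5′ to 3′ on the strand of its gene.
Ciart, chr3:95882179-95882478, minus strand: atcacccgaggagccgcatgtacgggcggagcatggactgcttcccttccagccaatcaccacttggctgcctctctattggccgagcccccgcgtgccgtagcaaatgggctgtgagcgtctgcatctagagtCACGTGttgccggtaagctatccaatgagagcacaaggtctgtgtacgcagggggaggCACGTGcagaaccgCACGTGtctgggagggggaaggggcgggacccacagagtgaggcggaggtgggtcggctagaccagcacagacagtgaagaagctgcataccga
Per1, chr11:69098699-69098998, plus strand: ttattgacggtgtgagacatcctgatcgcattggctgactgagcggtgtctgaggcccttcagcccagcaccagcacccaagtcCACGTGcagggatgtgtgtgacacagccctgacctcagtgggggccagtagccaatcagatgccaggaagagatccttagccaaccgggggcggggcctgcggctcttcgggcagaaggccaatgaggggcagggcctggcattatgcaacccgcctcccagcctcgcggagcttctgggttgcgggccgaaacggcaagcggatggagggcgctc
Cry1, chr10:85185005-85185304, minus strand: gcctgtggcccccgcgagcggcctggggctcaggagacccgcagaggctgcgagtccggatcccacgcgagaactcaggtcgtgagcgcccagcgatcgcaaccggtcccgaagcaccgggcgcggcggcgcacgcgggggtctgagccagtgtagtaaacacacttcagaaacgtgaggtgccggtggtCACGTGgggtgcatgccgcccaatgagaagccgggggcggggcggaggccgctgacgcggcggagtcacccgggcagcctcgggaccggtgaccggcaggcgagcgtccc
Per3, chr4:151044616-151044915, minus strand: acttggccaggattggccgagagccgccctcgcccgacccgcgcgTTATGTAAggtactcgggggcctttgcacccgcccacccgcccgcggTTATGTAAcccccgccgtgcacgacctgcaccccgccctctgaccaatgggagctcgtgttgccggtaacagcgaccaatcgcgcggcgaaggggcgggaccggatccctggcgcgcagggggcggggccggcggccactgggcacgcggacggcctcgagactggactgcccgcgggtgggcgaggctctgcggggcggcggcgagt

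Human rows of Hu livers were then set against mouse rows of Mu livers, to compare the clock of human hepatocytes with that of a liver made of mouse cells alone. The fitted amplitude was smaller in human rows for 8 of 9 genes, at a median of 46.2% of the Mu amplitude, and the fitted peak was earlier for 8 of 9, by a median of 2.99 h. The median amplitude over all rows tested was also lower in human rows, at 0.15 against 0.26 in mouse rows of Mu livers. Each gene was tested once with an exact 2-sided permutation test of its cosine and sine terms, which asks for a difference in amplitude and phase together. Each group was first centred on its own mean, so the test is exact only in that every exchange was counted. All 9 gave an unadjusted p under 0.05. With library size over all rows of both species, values also move with the human share of a liver. In that setting 6 of 9 gave an unadjusted p under 0.05, and PER1, CRY1 and CRY2 did not. In all 18 such tests were made, 9 here and 9 within the same livers, and no adjustment over so few chosen genes was applied. They were run on these genes only, so no share over all rows stands beside their counts. Species, hepatocyte source and the mix of cells change together between these groups and cannot be told apart.

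**Figure D2:**
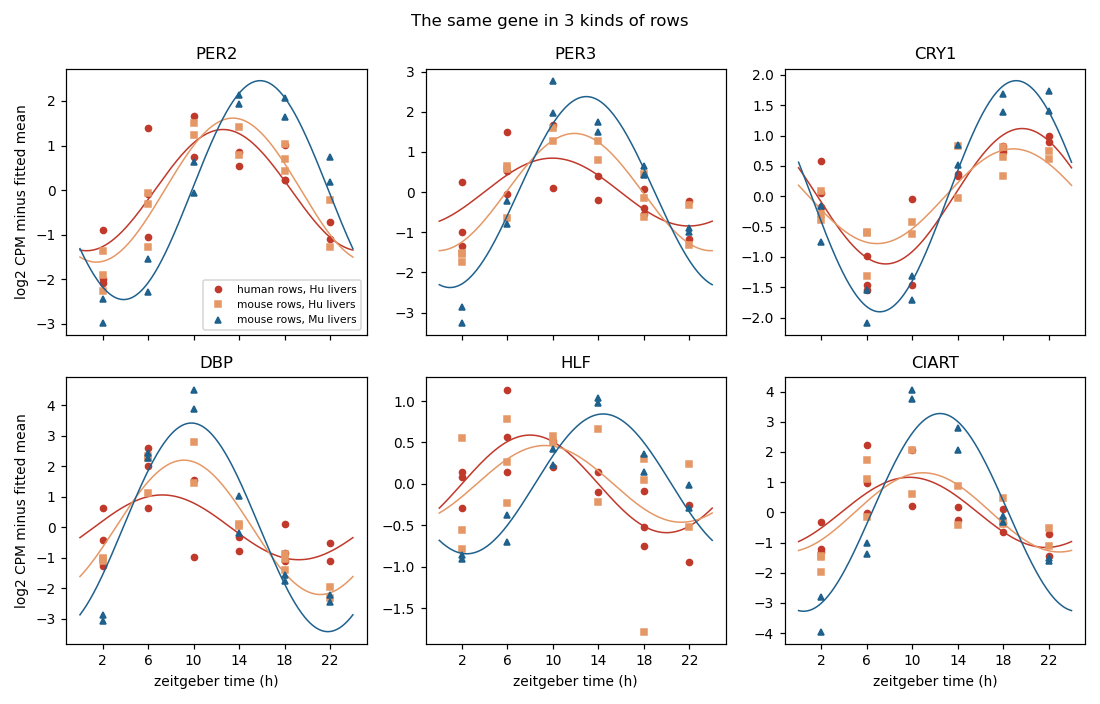
Log2 CPM minus the fitted mean (vertical axis) against zeitgeber time in hours for 6 genes in human rows of 15 Hu livers (circles), mouse rows of the same livers (squares) and mouse rows of 12 Mu livers (triangles), each with its 24 h cosine. The Mu curve has the largest swing in all 6 panels, and the human curve of HLF peaks 6.42 h before the Mu curve.

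HLF differed most in timing. Mouse Hlf (ENSMUSG00000003949) rose in Mu livers from 33.6 and 34.63 CPM at ZT 2 to 123.3 and 128.8 CPM at ZT 14 and peaked at ZT 14.4 ± 0.46 h. Human HLF had its highest mean at ZT 6, and its ZT 14 livers, at 96.98 and 114.8 CPM, overlapped the lowest ZT 6 liver at 114.3 CPM. The fitted human peak was earlier by 6.42 ± 0.80 h and its amplitude lower by 0.25 ± 0.17 (exact permutation p = 3.704e-05). TEF followed, earlier by 4.93 ± 2.30 h, with 32.4% of the Mu amplitude (exact p = 0.000245). Mouse Tef stood at 286.3 and 451.3 CPM at ZT 10 in Mu livers against 33.04 and 32.88 CPM at ZT 2.

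DBP differed most in amplitude, with 3.42 in Mu livers and 1.06 in human rows, a difference of -2.36 ± 0.65. The fitted peak-to-trough ratio was 4.36 in human rows and 114.9 in Mu livers. Its peak was earlier by 2.56 ± 1.45 h (exact p = 0.000894). CIART followed with an amplitude difference of -2.11 ± 0.59 and a peak earlier by 2.69 ± 1.12 h (exact p = 4.63e-05).

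PER2 peaked at ZT 12.6 in human rows and ZT 15.8 ± 0.40 h in Mu livers, 3.27 ± 0.93 h apart, with an amplitude difference of -1.10 ± 0.33 (exact p = 2.778e-05). Its Mu values were 48.27 and 78.15 CPM at ZT 10 and 220.3 and 192 CPM at ZT 14. These did not overlap, whereas in human rows the ZT 14 livers (21.5 and 17.51 CPM) overlapped those of ZT 10 (19.92 and 38.03 CPM). PER3 was earlier by 2.99 ± 1.18 h and lower in amplitude by 1.53 ± 0.48 (exact p = 6.944e-05). PER1 was earlier by 1.55 ± 1.20 h, and its amplitude difference was -1.12 ± 0.60 (exact p = 0.0207). The p-value of PER1 rose above 0.05 in 4 of 27 fits without 1 library, to at most 0.11 without Mu ZT 2 replicate 1. It was 0.247 with library size over all rows.

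The 2 cryptochromes were the exceptions in phase and in amplitude. The human peak of CRY1 was 0.51 ± 0.69 h later than in Mu livers, less than its error, and the amplitude was 58.6% of that in Mu (difference -0.79 ± 0.24, exact p = 0.000222). With library size over all rows the exact p of CRY1 was 0.148. Its Mu values were 6.37 and 9.313 CPM at ZT 6 and 87.79 and 71.1 CPM at ZT 18. CRY2 had the same fitted amplitude in both, 0.43 and 0.42, with a difference of 0.01 ± 0.15, and a human peak earlier by 3.91 ± 1.66 h (exact p = 0.0367). That p-value exceeded 0.05 in 12 of 27 fits without 1 library, with a highest value of 0.0852 without Mu ZT 18 replicate 1, was 0.0819 without the 2 livers under 30% human counts and 0.0522 with library size over all rows.

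**Figure D3:**
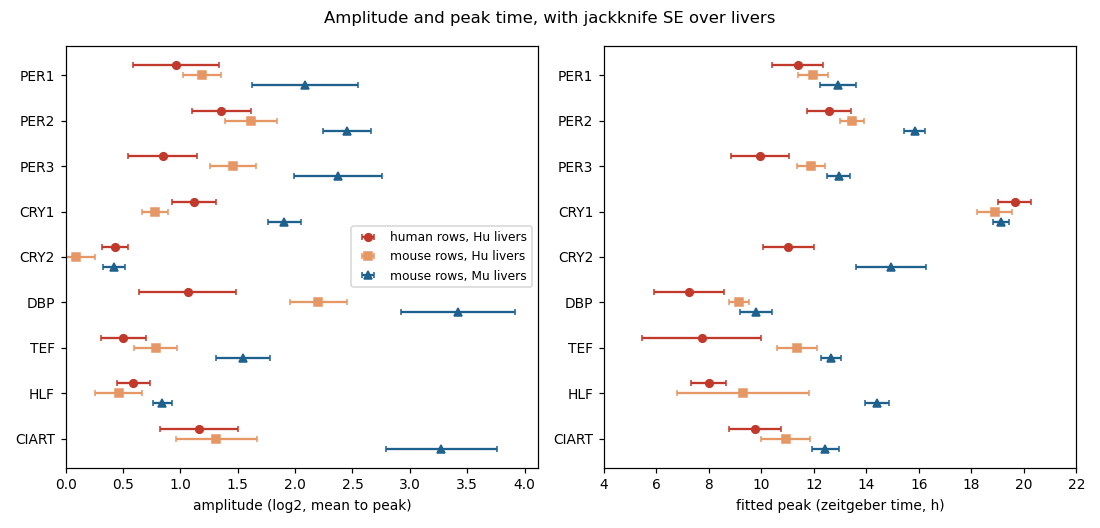
Fitted amplitude on the log2 scale (left, horizontal axis) and fitted peak in zeitgeber hours (right, horizontal axis) of the 9 genes in human rows of Hu livers (circles), mouse rows of Hu livers (squares) and mouse rows of Mu livers (triangles); bars are jackknife SE over livers, and the peak of CRY2 in mouse rows of Hu livers is left out because its amplitude was 0.09. Human amplitudes lie below the Mu ones except for CRY2, and the human peak precedes the Mu peak except for CRY1.

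Human and mouse rows of the same 15 Hu livers come from the same animal and time of sampling, but from different mixtures of cell types. The human peak was the earlier in 7 of the 8 genes other than CRY2, whose mouse rows were close to flat there, with a median over these 8 of 1.25 h. The human amplitude was the smaller in 6 of 9. Of the 9 exact tests, in which the species were exchanged within livers, 4 gave an unadjusted p under 0.05, for PER2, PER3, DBP and TEF. With library size over all rows PER2, PER3 and TEF were above 0.05 (exact p = 0.0794, 0.594 and 0.49), and their amplitude differences turned positive. In that setting 57.6% of all mouse rows of Hu livers were called rhythmic (edgeR adjusted p under 0.05), against 0.167% in the reported fit. The part of the human share in these changes was not tested. Whether the differences within livers are smaller than those from Mu livers was not tested.

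DBP had an amplitude of 1.06 in human and 2.20 ± 0.25 in mouse rows of the same livers, a difference of -1.14 ± 0.26, with the human peak earlier by 1.91 ± 1.15 h (exact p = 0.00183). PER3 was lower in amplitude by 0.61 ± 0.23 and earlier by 1.94 ± 0.92 h (exact p = 0.00116). TEF was earlier by 3.64 ± 2.23 h, with an amplitude difference of -0.28 ± 0.21 (exact p = 0.013). PER2 differed by -0.26 ± 0.14 in amplitude and by -0.86 ± 0.59 h in peak (exact p = 0.0111), and its p-value was 0.103 without the 2 livers under 30% human counts.

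For the other 5 genes the test within livers gave a p above 0.05, which does not show that they act alike. PER1 was earlier in human rows by 0.58 ± 0.82 h (exact p = 0.45) and CIART by 1.18 ± 0.75 h (exact p = 0.131). CRY1 had the larger amplitude in human rows, by 0.34 ± 0.17 (exact p = 0.0667). HLF gave a difference of -1.31 ± 2.58 h in peak (exact p = 0.602), an error larger than the difference itself. Mouse Hlf of Hu livers was lowest, at 4.959 CPM, in ZT 18 replicate 3, the liver with 93.07% human counts, where the hepatocyte markers of mouse rows summed to 19480 CPM. CRY2 was close to flat in mouse rows of Hu livers, with an amplitude of 0.09 ± 0.17, and its peak there is not interpreted (exact p = 0.221).

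The mouse rows of both arms were compared as well. A different rhythm was called for 2 of the 9 genes, where 1.28% of mouse rows were called, and 7 of the 9 had an unadjusted p under 0.05, where 21% of mouse rows did. For Cry1 the amplitude was 1.91 in Mu and 0.78 in Hu livers (edgeR adjusted p = 0.00622). For Per2 it was 2.45 and 1.61, with peaks at ZT 15.8 and ZT 13.4 ± 0.46 h (adjusted p = 0.018). Cry1 kept its call in 27 and Per2 in 26 of 27 fits without 1 library. The human and the mouse values of PER2 in Hu livers, at ZT 12.6 and 13.4, thus both lay before the Mu peak, while both comparisons use the same Mu livers. This was not particular to PER2. An earlier fitted peak in mouse rows of Hu than of Mu livers was found for all 9 genes, with Cry2 close to flat there. No test of peak time alone was made. For Cry1 the peaks were ZT 18.89 ± 0.67 h in Hu and 19.14 ± 0.30 h in Mu livers, and Hlf had an SE of 2.52 h in Hu. The other clock genes listed went both ways, Arntl from ZT 22.2 in Mu to 22.7 in Hu livers and Nr1d2 from ZT 9.37 to 8.25.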

How the data were processed

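RNA sequencing libraries (directional, total RNA) of 15 Hu and 12 Mu livers were used. The authors deposited 1 table of raw counts per gene, in which mouse and human rows stand together. The submitters' processing notes name STAR and the builds GRCm38, mm10, hg38, GRCh38 and hg19 without their roles; the counting program and how reads were assigned to a species are not given in the sources used here. Library size was summed over the rows of a species, scaled with TMM, after the edgeR filter on low counts, which all 9 genes passed in each fit. Rhythm was tested with edgeR 4.0.16 (R 4.3.3) on cosine and sine terms of 24 h, with Benjamini-Hochberg adjustment over all rows of a species. Human rows were fitted on Hu livers, mouse rows on both arms. Amplitude and peak come from least squares fits of log2 CPM (prior count 2), with jackknife SE over livers. Species were compared with exact 2-sided permutation tests, exchanging arms within a time point or species within a liver. Exact means here that every exchange was counted. Values were centred on their means first and the spread of the groups can differ, so these p-values are approximate. The labels number the livers but do not say how they relate to mice or hepatocyte donors, so that p-values measure the spread between these samples. The name table matched 19615 of 19689 mouse rows and 0 of 17729 human rows, so only the 9 human genes carry names. Those 9 are the genes named in the text, with the lists of 13 other clock genes and of liver cell markers. The members and lists were chosen with earlier results of these data known. Alternatives changed the scaling, filter, test, model of time, libraries and covariates, among them DESeq2 1.42.0. Scripts were tested on simulated data.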

Additional observations from a re-analysis of the deposited data

Results flagged for a closer look

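In mouse rows the rhythm differed between the arms for Per2 (edgeR adjusted p = 0.01801) and Cry1 (adjusted p = 0.006216), both with the smaller amplitude in Hu livers. Human rows of Hu livers differed from mouse rows of Mu livers in all 9 genes by the exact permutation test of amplitude and phase together, and in 6 with library size over all rows. The exact p-values were 0.02067 for PER1, 2.778e-05 for PER2, 6.944e-05 for PER3, 0.0002222 for CRY1 and 0.03669 for CRY2. They were 0.0008935 for DBP, 0.0002454 for TEF, 3.704e-05 for HLF and 4.63e-05 for CIART. Human and mouse rows of the same livers differed for 4 genes, with exact p-values of 0.01111 for PER2, 0.00116 for PER3, 0.001831 for DBP and 0.013 for TEF. All these p-values of the exact tests are unadjusted, from 18 tests run on these 9 genes only.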

How the results depend on the processing

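The count of rhythmic human genes, 2 of 9, depended on the processing. The share of all human rows called, 1.08% in the reported fit, moved too and is given in brackets. The count was 6 with library size over all rows (0.647%), 8 by the DESeq2 likelihood ratio test (8.77%) and 0 with zeitgeber time as a factor (0% in edgeR). With time as a factor 6 genes had an unadjusted edgeR p under 0.05, as had 978 of 12832 human rows. The count was 1 with the human share as a covariate (0.132%), 1 without the livers under 30% human counts (0.41%) and 0 to 4 when 1 liver was left out. The cause was not tested. In mouse rows of Hu livers the count of 4 (0.167% of mouse rows) became 7 by DESeq2 (3.46%) and 3 to 6 without 1 library. It was 5 with library size over all rows, where 57.6% of mouse rows of Hu livers were called (edgeR). The count of 2 mouse genes that differed between arms (1.28%) became 0 with library size over all rows (edgeR, 0.0734%), 4 by DESeq2 (7.71%) and 1 with time as a factor (0.0734%), and was 1 to 2 without 1 library. With library size over all rows, 8 genes had an unadjusted edgeR p under 0.05, as had 3864 of 14977 mouse rows. Without 1 library, 8 to 9 genes were rhythmic in Mu livers, 7 to 9 differed between human and Mu rows, and 4 to 6 differed within livers. The count against Mu rows was 6 with library size over all rows and 8 without the livers under 30% human counts, and the count within livers was 3 in both. With library size over all rows CRY1 and CRY2 fell under 0.05 within livers, at exact p of 0.0468 and 0.017, and some signs reversed. Within livers the amplitude differences became 0.9246 (PER2), 0.2716 (PER3) and 0.257 (TEF), and the peak differences 0.9431 h (PER3), 1.253 h (DBP) and 3.198 h (TEF). Against Mu livers the peak difference of CRY1 became -1.326 h and the amplitude difference of HLF 0.02691. The amplitude difference of CRY2 against Mu livers turned negative in 8 of 27 fits without 1 library and ranged from -0.0658 to 0.06079. Same-numbered livers of the arms correlated at 0.0129 to 0.3125 in 12 pairs, all positive and over 0.1 in 7. At ZT 10, 14 and 22, where each arm has 2 livers used, both pairs necessarily give the same value. These values do not decide whether the numbers mark pairs, and the reported fits did not take them as pairs. With the replicate block, the counts were 3 for human genes (1.11% of rows), 8 in Mu (17.7%), 4 in Hu (0.194%) and 2 between arms (0.921%). In that setting 8 genes differed between human and Mu rows, all but PER1 (exact p = 0.0625). The planned limma fit over genes paired by symbol was not run, since the human rows carry no names. Depth was at least 7.699 M counts (M for 1000000) per species in each Hu liver, and CIART had 29 counts in its lowest liver.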
